A study of Mus musculus with 10 samples.

Results

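The SLC25 family, the solute carriers of the inner mitochondrial membrane, was examined in CD31+ cells of the mouse heart after 14 days on a control or a ketogenic diet. Members were the protein-coding genes whose symbol begins with Slc25a, apart from a single gene that is not reported here. They numbered 46 of the 46983 genes in the count table, of which 21560 are protein-coding. All animals were male wild-type C57BL/6J mice that entered the diets at 8 weeks of age, 5 per diet, with 1 library per mouse. The control diet drew 11.6% of its energy from fat and the ketogenic diet 89.5%, and both groups carried the same genotype. Cells were taken from the digested heart with magnetic beads against CD31, a surface protein of endothelial cells that platelets and some leukocytes also carry, so that each library is a mixture enriched for endothelium and not a pure culture. Messenger RNA was read with a kit that amplifies full-length cDNA and does not record the strand.

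SLC25 carriers are small inner membrane proteins that exchange or co-transport metabolites between the cytosol and the mitochondrial matrix. The membrane is otherwise tight, so that ATP export, phosphate entry, the shuttles that carry reducing equivalents, amino acid breakdown, cofactor supply and iron delivery all run through members of the family. A few members sit elsewhere, such as Slc25a17 in peroxisomes and Slc25a46 in the outer mitochondrial membrane. Endothelial cells draw much of their ATP from glycolysis and use mitochondria largely for biosynthesis and signalling, whereas the neighbouring cardiomyocytes are packed with mitochondria that burn fatty acids and ketone bodies.

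The libraries held 10885154 to 12710861 reads on genes. In edgeR's quasi-likelihood test with Benjamini-Hochberg adjustment over 15949 tested genes, 1.34% of genes had an adjusted p under 0.05. The 12 endothelial markers examined were all present, with a summed normalized count of 65148 to 70313 on the control diet and 62871 to 70758 on the ketogenic diet. Their highest counts were 32.4% (Emcn) to 91.2% (Cldn5) of the positions on both strands at which a read can start. The counts may thus have little room to climb, and similar sums do not show an equal endothelial content. Markers of other cells were present too, and none of the markers listed was at 0 in every mouse. Summed mural markers were the highest of these, at 28797 to 31134 on the control diet and 27782 to 31029 on the ketogenic diet. Cd79a, a lymphocyte marker, was the only marker past the adjusted threshold, with a log2 fold change (ketogenic minus control) of −0.46 (adjusted p = 0.0221 from edgeR). All 12 cardiomyocyte markers had a higher mean on the ketogenic diet, with a summed normalized count of 7899 to 10106 in control mice and 9401 to 13355 in ketogenic mice, and 0 of them passed the adjusted test. Summed macrophage markers ran from 2258 to 8370 on the control diet and from 1932 to 3677 on the ketogenic diet, and summed platelet markers from 4699 to 7635 and from 2184 to 5603.

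The summed level of the SLC25 family overlapped between the diets. A single member, higher on the ketogenic diet, passed the adjusted test in edgeR. In DESeq2 5 of the 39 members with an adjusted p passed, beside 5.54% of all genes. Of the 46 members, 40 had enough reads for the test, and the deposited RPKM values (reads per unit of gene length and of library total) summed over all 46 were 477 ± 10.1 (SD, n = 5) on the control diet and 490 ± 10.3 (SD, n = 5) on the ketogenic diet, with overlapping ranges. Slc25a34 was the only tested member with an adjusted p under 0.05 in edgeR's quasi-likelihood test, beside 1.34% of all tested genes in either direction and 0.809% in the direction of higher levels. On the lower side 0 of 40 passed, beside 0.527% of all tested genes. At an unadjusted p under 0.05 there were 5 members with higher levels, beside 8.57% of all tested genes, and 5 with lower levels, beside 9.26%, which makes 10 in all, beside 17.8%.

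The 40 tested members split evenly, with 20 above and 20 below 0 on the log2 scale. Their median log2 fold change (ketogenic minus control) was 0.01, with a range from −0.65 to 1.83, and the median over all tested genes was −0.01. Without regard to sign the median change was 0.11 on the log2 scale for the members and 0.11 for all tested genes. In 28 of the 40 members the 95% interval of the log2 fold change lay within 0.5 of 0 on either side, and in the other 12 it reached further. The normalized counts of the diets did not overlap in 3 members, Slc25a34, Slc25a39 and Slc25a23, where 4.34% of all tested genes showed no overlap. DESeq2, the package that the paper used to find differentially expressed genes, was run beside edgeR. It gave 5 members an adjusted p under 0.05 out of 39 with an adjusted p, namely Slc25a27, Slc25a30, Slc25a34, Slc25a37 and Slc25a39, beside 5.54% of all genes. Because these are bulk libraries, fewer cells of a type and less RNA per cell cannot be told apart in any value given here.

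**Figure D1:**
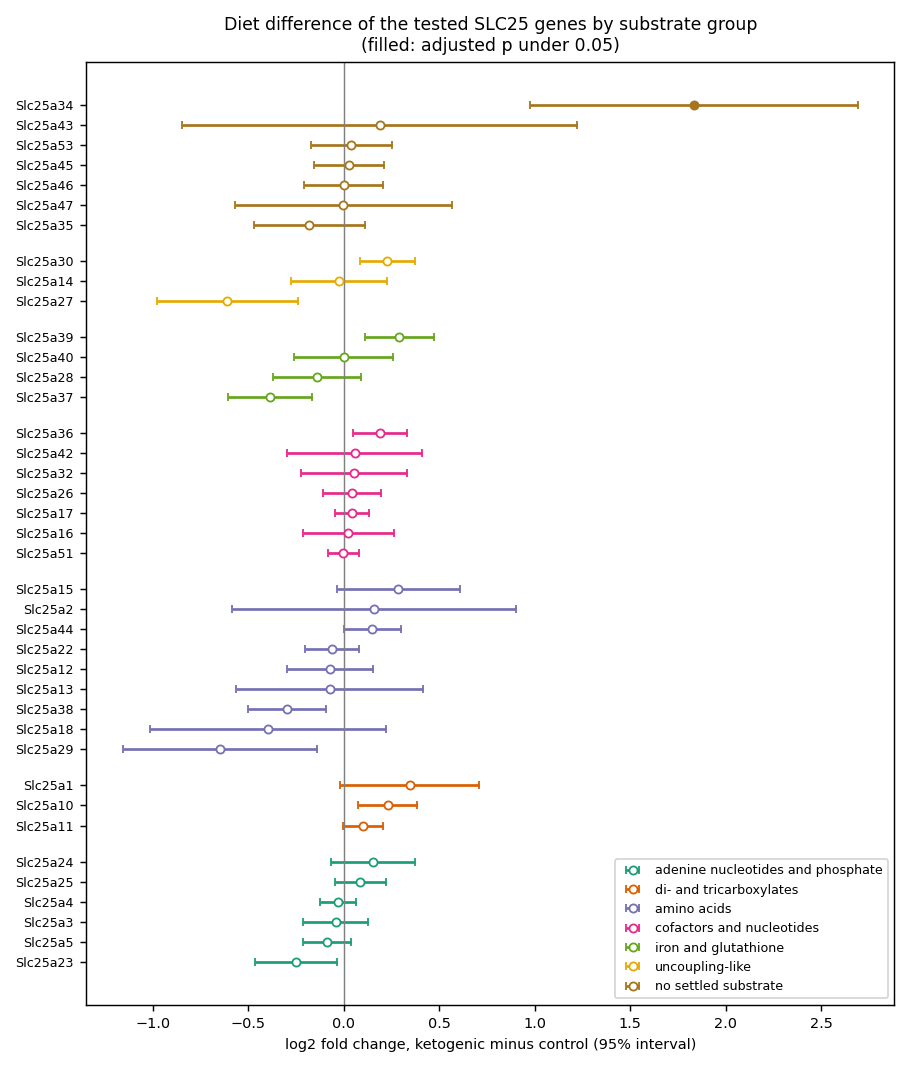
Log2 fold change (ketogenic minus control, x axis) of 39 tested SLC25 genes with its 95% interval from edgeR, ordered by substrate group, 5 mice per diet. Slc25a34 is the filled point at 1.83, and the other 38 open points lie between −0.65 and 0.35.

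The 6 members that were not tested, Slc25a21, Slc25a31, Slc25a33, Slc25a41, Slc25a48 and Slc25a54, had at most 27 reads in any mouse. Slc25a31 is the testis form of the ADP/ATP carrier, and Slc25a21 carries oxodicarboxylates of lysine and tryptophan breakdown. Without the filter on low counts all 46 members entered edgeR's test, 1 passed the adjusted threshold and it was Slc25a34, so that no difference was detectable at this depth for these 6 genes.

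Slc25a34 rose on the ketogenic diet. It belongs to the members without a settled substrate and lies on chromosome 4 from 141618824 to 141623821 (GRCm38, minus strand, ENSMUSG00000040740.7), with no other annotated gene overlapping it. Its normalized counts were 14.0, 12.4, 23.8, 2.11 and 15.1 in control mice 1 to 5 and 39.5, 33.5, 67.7, 58.3 and 42.8 in ketogenic mice 1 to 5. Each ketogenic mouse was above each control mouse, and control mouse 4 was the lowest by far, with 2 reads. The diet difference (ketogenic minus control, here and below) was 1.83 ± 0.394 on the log2 scale (SE, 95% interval 0.97 to 2.69, adjusted p = 0.0456 from edgeR's quasi-likelihood test with Benjamini-Hochberg adjustment), and the exact permutation test over mice gave p = 0.00794, the smallest it can give. The mean normalized count was 13.5 ± 7.75 (SD, n = 5) on the control diet and 48.4 ± 14.2 (SD, n = 5) on the ketogenic diet, which places the gene among the 3 lowest of the tested members by RPKM. With 2 to 69 reads per mouse the call was close to the threshold. It was lost on leaving out 7 of the 10 mice in turn (control mice 1, 2 and 5 and ketogenic mice 1, 3, 4 and 5), with adjusted p values between 0.0335 and 0.103 from edgeR over the 10 fits and log2 fold changes between 1.56 and 2.13.

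The promoter of Slc25a34 is shown because it is the only member past the threshold, and that of Slc25a23 for comparison because its diets did not overlap either, with lower values on the ketogenic diet. Each is the 250 bases before a RefSeq transcription start on GRCm38.p6, read 5′ to 3′ on the gene's minus strand, with the hexamer AGGTCA, or its reverse complement TGACCT, in capitals. AGGTCA is the core that nuclear receptors such as the PPARs recognize, usually as a repeat. The windows are chr4:141623835-141624084 for Slc25a34, in which GENCODE annotates no gene, and chr17:57059864-57060113 for Slc25a23, which lies in an intron of Crb3 on the other strand.
Slc25a34: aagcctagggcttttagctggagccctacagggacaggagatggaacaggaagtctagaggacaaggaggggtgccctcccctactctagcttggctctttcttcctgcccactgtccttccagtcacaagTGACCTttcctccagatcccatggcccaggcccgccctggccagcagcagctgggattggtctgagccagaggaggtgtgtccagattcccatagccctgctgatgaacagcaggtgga
Slc25a23: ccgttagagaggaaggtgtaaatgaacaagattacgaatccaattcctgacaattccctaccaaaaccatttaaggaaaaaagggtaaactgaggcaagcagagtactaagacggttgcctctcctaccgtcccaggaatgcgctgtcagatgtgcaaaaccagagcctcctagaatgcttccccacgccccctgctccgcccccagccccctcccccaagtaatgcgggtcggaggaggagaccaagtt

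RefSeq promoter entries matched 35 members by symbol, with 45 windows. The hexamer was found, on either strand, in 4 of these 45 windows (Slc25a34, Slc25a39, Slc25a45 and Slc25a47). Over all genes it was in 14.0% of 32851 promoter windows of the same length. A direct repeat of the hexamer with any 1 base between the copies, searched on both strands and also counted under the hexamer itself, was found in 0.0335% of all windows and in 0 of the 45 windows of members. These matches describe the letters of the windows only. The RefSeq start of Slc25a34 lies 13 bases upstream of the one that GENCODE annotates, and its window has a GC content of 58.4%. The Slc25a23 window, at 52.4% GC, ends at the GENCODE start and holds 0 copies of the hexamer. Slc25a39, whose diets did not overlap either, has a window that is not printed here. That window holds 1 copy of the hexamer and has a GC content of 77.2%, and its RefSeq start lies 429 bases from the GENCODE start. Whether the hexamer goes with the direction of a diet difference was not tested.

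Cardiomyocyte markers leaned the same way as Slc25a34, with 12 of 12 above 0 and 0 past the adjusted threshold. Summed over 12 markers they were 1.29 times as high on the ketogenic diet as on the control diet (median log2 fold change 0.36), and Ttn (titin, the giant spring protein of the sarcomere) had a normalized count of 617 ± 182 (SD, n = 5) on the control diet and 1262 ± 420 (SD, n = 5) on the ketogenic diet. Per 1000 cardiomyocyte marker counts there were 1.51 ± 0.780 counts of Slc25a34 (SD, n = 5, range 0.228 to 2.36) on the control diet and 4.18 ± 0.815 (SD, n = 5, range 2.93 to 5.07) on the ketogenic diet, so that these ratios did not overlap. Per 100 counts of Ttn there were 2.42 ± 1.33 (SD, n = 5, range 0.244 to 3.64) and 3.97 ± 0.922 (SD, n = 5, range 2.76 to 4.86), and these did overlap. The cardiomyocyte score, the mean z-score of the 12 markers, ran from −1.34 to 0.133 on the control diet and was −0.355 or higher in the ketogenic mice. Only control mouse 3 and ketogenic mouse 1 lay in the shared range. The mean score was −0.630 ± 0.602 (SD, n = 5) on the control diet and 0.630 ± 0.685 (SD, n = 5) on the ketogenic diet. In a fit that also held the score, the log2 fold change of Slc25a34 was 1.31 ± 0.536 (SE, unadjusted p = 0.0318, adjusted p = 0.406 from edgeR's quasi-likelihood test), and the call was lost. Since the score went largely with the diet, such a fit separates them poorly, here and for the genes below. The markers differ in how far their counts can still climb, since the highest count of Ttn was 0.794% of the positions on both strands at which a read can start and that of Actc1 56.6%, and which of them best stands for the amount of cardiomyocyte RNA was not tested.

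**Figure D2:**
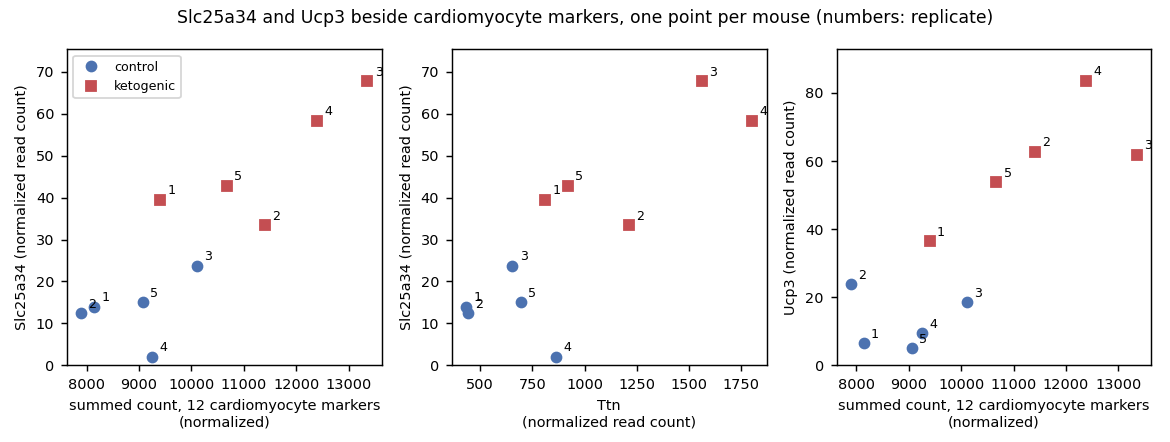
Normalized counts of Slc25a34 (left and middle) and Ucp3 (right) against the summed cardiomyocyte marker count or the Ttn count, with 1 point per mouse numbered by replicate, circles for the control diet and squares for the ketogenic diet. The 5 ketogenic mice lie above the 5 control mice in each panel, and the diets overlap along the x axis.

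The other tested members without a settled substrate showed no difference past the threshold. Slc25a45 was the most abundant of them and among the 6 highest of the family per length, at 22.0 ± 2.83 RPKM (SD, n = 5) on the control diet and 22.6 ± 1.69 (SD, n = 5) on the ketogenic diet. Its normalized counts were 1641, 1593, 1492, 1172 and 1564 in the control mice and 1499, 1335, 1557, 1601 and 1608 in the ketogenic mice. Control mouse 4 was the lowest of all 10, and the log2 fold change of 0.03 (95% interval −0.16 to 0.21, adjusted p = 0.900 from edgeR) turned to −0.05 without it. Slc25a46, an outer membrane protein that takes part in mitochondrial fission and lipid exchange, and Slc25a53 had log2 fold changes of −0.00153 and 0.04. Slc25a35 stood at −0.18, and at −0.05 without control mouse 1. Slc25a43 and Slc25a47 varied so much between mice that their 95% intervals ran from −0.85 to 1.22 and from −0.57 to 0.57, and their signs turned on leaving out single mice.

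The iron and glutathione carriers held members with higher and with lower levels, and 0 of the 4 passed the adjusted test in edgeR. Slc25a37 encodes mitoferrin-1, which brings iron into the matrix for heme and iron-sulfur clusters. Mice 1 to 5 on the control diet had 563, 562, 498, 446 and 508 normalized counts, and mice 1 to 5 on the ketogenic diet had 378, 474, 336, 359.6 and 426. In 4 of the 5 ketogenic mice the count was below that of every control mouse, and ketogenic mouse 2 overlapped the control range. The mean was 515 ± 48.7 (SD, n = 5) on the control diet and 394 ± 55.1 (SD, n = 5) on the ketogenic diet, a diet difference of −0.39 ± 0.101 on the log2 scale (SE, adjusted p = 0.0805 from edgeR, 0.0128 from DESeq2), and the exact permutation p was 0.0159. Summed macrophage markers had a ratio of 0.597 between the diets (ketogenic to control), platelet markers 0.591, lymphocyte markers 0.733 and erythroid markers 1.04. The erythroid ratio cannot show equal red cell content. Hba-a1 had 97 to 98 reads and Hba-a2 98 to 101 in every mouse, and most of the sum was Alas2 (mean normalized counts 2302 and 2464 on the control and ketogenic diets). The part of all these cells in the Slc25a37 value was not tested. Corrected for the cardiomyocyte score, Slc25a37 stood at −0.23 (unadjusted p = 0.145 from edgeR). Annotated genes overlap Slc25a37 on both strands (Gm20236, Gm27222, Gm27223 and Gm31748), and reads cannot be assigned by strand here.

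Slc25a39 brings glutathione into mitochondria, and its difference between the diets was larger in the fit that held the cardiomyocyte score. In the control mice it had normalized counts of 723, 769, 657, 628 and 762, and in the ketogenic mice of 1032, 836, 806, 819 and 837. The diets did not overlap, and ketogenic mouse 1 stood well above the other ketogenic mice. The mean was 708 ± 62.9 (SD, n = 5) on the control diet and 866 ± 93.6 (SD, n = 5) on the ketogenic diet, a diet difference of 0.29 ± 0.0823 on the log2 scale (SE, adjusted p = 0.101 from edgeR, 0.0246 from DESeq2), with an exact permutation p of 0.00794. In the fit with the score it was 0.50 (unadjusted p = 1.53e-04, adjusted p = 0.0745 from edgeR), still short of the threshold. The related carrier Slc25a40 stood at −0.00135 (95% interval −0.26 to 0.26), and mitoferrin-2, encoded by Slc25a28, at −0.14 (95% interval −0.37 to 0.09).

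**Figure D3:**
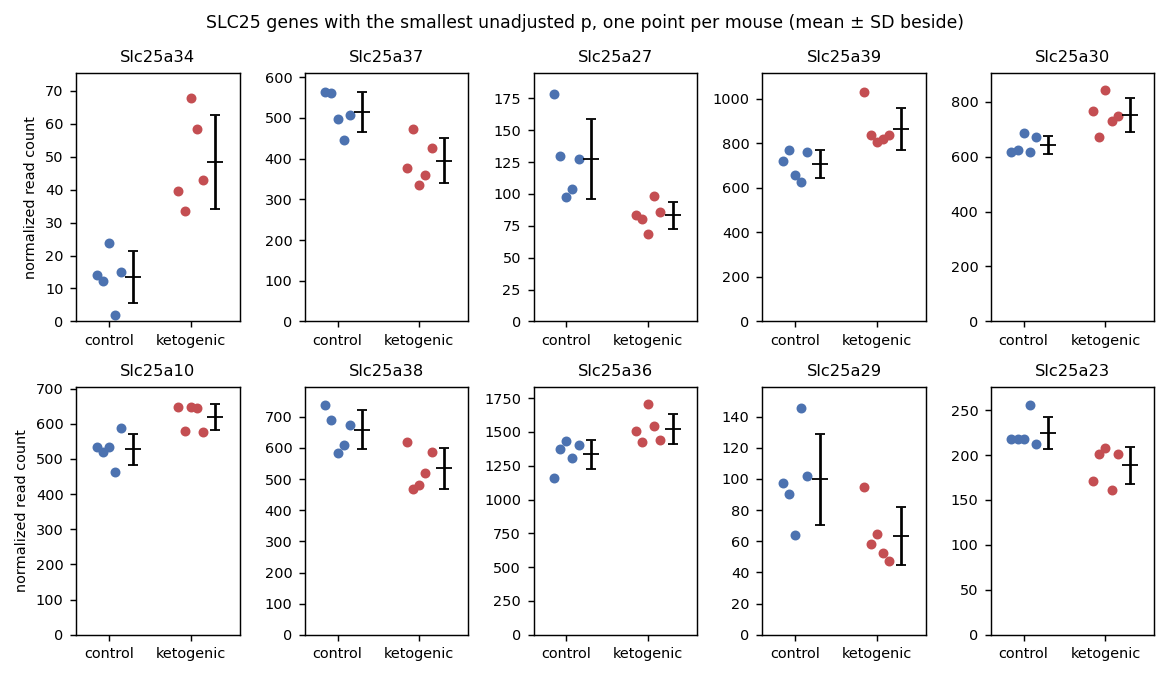
Normalized read count (y axis, from 0) of the 10 SLC25 genes with the smallest unadjusted p, with 1 point per mouse and the mean ± SD of each diet beside it. The points of the diets are apart for Slc25a34, Slc25a39 and Slc25a23 and overlap for the other 7 genes.

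The uncoupling-like carriers, relatives of the uncoupling proteins, diverged in sign without passing the threshold in edgeR. Slc25a27 encodes UCP4, known best from neurons. The control mice had 178, 129.7, 97.3, 104 and 128 normalized counts of it, and the ketogenic mice 83.9, 80.5, 68.7, 98.2 and 85.6. All but 1 of the ketogenic mice were below the lowest control mouse, and control mouse 1 was far above the rest. The mean was 127 ± 31.7 (SD, n = 5) on the control diet and 83.4 ± 10.6 (SD, n = 5) on the ketogenic diet, with a diet difference of −0.61 ± 0.169 on the log2 scale (SE, adjusted p = 0.0959 from edgeR, 0.0341 from DESeq2) and an exact permutation p of 0.0159. Corrected for the cardiomyocyte score it was −0.26 (unadjusted p = 0.282 from edgeR). Slc25a30, also called KMCP1, had normalized counts of 616, 623, 684, 615 and 669.9 in the control mice and 765, 671, 840.4, 729.8 and 748 in the ketogenic mice. Only ketogenic mouse 2 lay within the control range. The diet difference was 0.23 ± 0.0654 on the log2 scale (SE, adjusted p = 0.105 from edgeR, 0.0340 from DESeq2, exact permutation p = 0.0159), and 0.14 in the fit with the score. The remaining member, Slc25a14, was at −0.03 (95% interval −0.27 to 0.22).

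Carriers of di- and tricarboxylates, which link the tricarboxylic acid cycle with the cytosol, had positive log2 fold changes in all 3 tested members, and 0 of the 3 passed the adjusted test. Their summed RPKM, with the untested Slc25a21 included, was 41.1 ± 0.969 (SD, n = 5, range 39.8 to 42.3) on the control diet and 45.7 ± 2.70 (SD, n = 5, range 42.7 to 49.6) on the ketogenic diet, and most of that sum was Slc25a11. Slc25a10 encodes the dicarboxylate carrier, which exchanges malate and succinate for phosphate. Normalized counts of Slc25a10 were 535, 519, 533, 463 and 587 in the control mice and 647, 580.2, 646, 644 and 575 in the ketogenic mice. In 3 ketogenic mice the count was above every control mouse, and the other two fell within the control range. For Slc25a10 the diet difference was 0.23 ± 0.0708 on the log2 scale (SE, adjusted p = 0.127 from edgeR, exact permutation p = 0.0238) and 0.22 when corrected for the cardiomyocyte score.

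Slc25a11 encodes the oxoglutarate carrier of the malate-aspartate shuttle and was among the 6 highest members per length. It had normalized counts of 1396, 1412, 1401, 1394 and 1358 in the control mice and 1525, 1375, 1650.3, 1496 and 1426 in the ketogenic mice. The control mice lay close together, and 4 of the 5 ketogenic mice were above all of them. The level was 31.2 ± 0.498 RPKM (SD, n = 5) and 33.8 ± 2.35 RPKM (SD, n = 5), a diet difference of 0.10 ± 0.0480 on the log2 scale (SE, adjusted p = 0.290 from edgeR). Slc25a1, the citrate carrier that feeds lipid synthesis, had the widest error of the 3, with a diet difference of 0.35 ± 0.167 on the log2 scale (SE, adjusted p = 0.305 from edgeR). Slc25a10 and Slc25a11 overlap Gm11788 and Rnf167 on the other strand.

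Amino acid carriers leaned to lower values, with 6 of 9 below 0 and a median log2 fold change of −0.07, and 0 of 9 passed the adjusted test in edgeR. Slc25a38 brings glycine into mitochondria for the first step of heme synthesis. Normalized counts of Slc25a38 came to 739, 688, 583, 609.5 and 674 in the control mice and to 619, 468, 482, 519.9 and 589 in the ketogenic mice. The counts of 3 ketogenic mice were below all control mice, and the other two overlapped the control range. Between the diets the difference was −0.30 ± 0.0927 on the log2 scale (SE, adjusted p = 0.130 from edgeR, exact permutation p = 0.0397), and correction for the cardiomyocyte score brought it to −0.04 (unadjusted p = 0.695). Slc25a29, a carrier of basic amino acids, had normalized counts of 97.2, 90.6, 64.2, 145 and 102 in the control mice and 94.7, 58.5, 64.8, 52.5 and 47.4 in the ketogenic mice. Control mouse 4 was the highest, and ketogenic mice 1 and 3 lay within the control range. For Slc25a29 the diet difference was −0.65 ± 0.233 on the log2 scale (SE, adjusted p = 0.176 from edgeR, exact permutation p = 0.0397), and −0.39 when corrected for the cardiomyocyte score (unadjusted p = 0.265 from edgeR).

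The other amino acid carriers spanned log2 fold changes from −0.40 for Slc25a18, a glutamate carrier with at most 21 reads per mouse, to 0.29 for Slc25a15, the ornithine carrier of the urea cycle. When corrected for the cardiomyocyte score, Slc25a15 stood at 0.66 (unadjusted p = 0.00345 from edgeR), which did not pass adjustment. Slc25a44, which brings branched-chain amino acids into mitochondria, was at 0.15 (95% interval −1.68e-04 to 0.30, adjusted p = 0.281 from edgeR). The aspartate/glutamate carriers of the malate-aspartate shuttle, Slc25a12 and Slc25a13, stood at −0.07 and −0.07. Slc25a22, the other glutamate carrier, was at −0.06, and Slc25a2, the second ornithine carrier, at 0.16 with a wide interval of −0.58 to 0.90 and values of −0.08 to 0.35 on leaving out each mouse.

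The ADP/ATP and phosphate carriers, which export ATP and import the phosphate to make it, made up 30.8% of the family's summed RPKM together with the ATP-Mg/phosphate carriers. That sum was 149 ± 3.84 RPKM (SD, n = 5) on the control diet and 149 ± 7.37 RPKM (SD, n = 5) on the ketogenic diet. Slc25a4 encodes ANT1, the ADP/ATP carrier of heart and muscle. In the control mice its normalized counts ran to 2549, 2303, 2484, 2538 and 2399, and in the ketogenic mice to 2425, 2567, 2426, 2357 and 2228. Those of Slc25a5, which encodes the more widespread ANT2, were 1048, 917, 996, 1023 and 968 and 932, 1036, 903, 925 and 863. The diets overlapped for both genes, with log2 fold changes of −0.03 (95% interval −0.13 to 0.06, adjusted p = 0.735 from edgeR) for Slc25a4 and −0.09 (95% interval −0.21 to 0.04, adjusted p = 0.449 from edgeR) for Slc25a5. The phosphate carrier Slc25a3 was at −0.04 (95% interval −0.21 to 0.13).

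The raw counts of Slc25a4 and Slc25a5 spread less between mice than counting error alone would give. Slc25a4 had 2360 to 2471 reads in the 10 mice and Slc25a5 920 to 991, and the variance between mice of a diet was 0.166 and 0.354 times the mean, where independent reads give 1 or more. Among all tested genes of a mean count of 800 to 3000, 4.74% had a ratio below 1 and the median was 9.45, and 2 of the 14 members in this range were below 1. The highest count of Slc25a4 was 52.5% of the number of start positions on its merged exons, both strands counted, that of Slc25a5 was 30.1%, and that of Slc25a34 was 1.29%. The sources used here do not say whether reads with the same start were removed before counting. In a fit on counts corrected for the share of start positions in use, chosen after seeing the data, the log2 fold change was −0.02 for Slc25a4 and −0.10 for Slc25a5. The annotation also names 1 pseudogene of Slc25a5, with which reads may be shared.

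**Figure D4:**
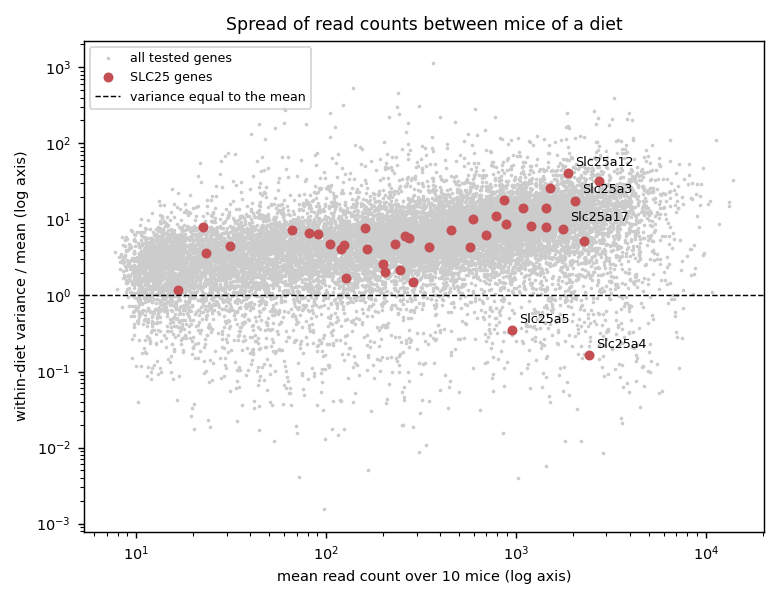
Variance of the raw count between mice of a diet divided by its mean (y axis, log) against the mean count over 10 mice (x axis, log) for all tested genes in grey and SLC25 genes in red. Slc25a4 at 0.166 and Slc25a5 at 0.354 lie below the dashed line at 1, and the other 38 tested members lie above it.

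The calcium-regulated ATP-Mg/phosphate carriers adjust the adenine nucleotide content of the matrix. Slc25a23 had normalized counts of 218, 217, 217, 256 and 212 in the control mice and 171, 201, 208, 161 and 201 in the ketogenic mice. The diets did not overlap, 4 of the 5 control mice lay within a few counts of each other, and control mouse 4 was well above them. The diet difference was −0.25 ± 0.0985 on the log2 scale (SE, adjusted p = 0.210 from edgeR, exact permutation p = 0.00794) and −0.35 when corrected for the cardiomyocyte score (unadjusted p = 0.0381 from edgeR). Crb3 and Gm17168 overlap Slc25a23 on the other strand. Its relatives Slc25a24 and Slc25a25 were at 0.15 (95% interval −0.07 to 0.37) and 0.09 (95% interval −0.05 to 0.22).

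Carriers of cofactors and nucleotides lay close to 0, with a median log2 fold change of 0.04 over 8 tested members, and 0 of the 8 passed the adjusted test. Slc25a36 imports pyrimidine nucleotides for mitochondrial DNA and RNA. It had normalized counts of 1161, 1373, 1432, 1309.6 and 1401 in the control mice and 1506, 1428, 1704, 1542 and 1442 in the ketogenic mice. Control mouse 1 was the lowest, and ketogenic mouse 2 alone lay within the control range. For Slc25a36 the difference between the diets was 0.19 ± 0.0646 on the log2 scale (SE, adjusted p = 0.155 from edgeR, exact permutation p = 0.0159) and 0.07 when corrected for the cardiomyocyte score. Slc25a36 overlaps Gm16185 on the other strand.

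Slc25a17, the peroxisomal carrier of coenzyme A, FAD and NAD+, had the highest deposited RPKM of the family, at 89.2 ± 3.04 (SD, n = 5) on the control diet and 92.6 ± 4.31 (SD, n = 5) on the ketogenic diet. Its normalized counts were 1786, 1713, 1686, 1702 and 1820.5 in the control mice and 1686, 1749, 1895, 1848 and 1786 in the ketogenic mice. The diets overlapped, with a log2 fold change of 0.04 (95% interval −0.05 to 0.13, adjusted p = 0.625 from edgeR) that was −0.01 when corrected for the cardiomyocyte score. Slc25a51, the mitochondrial NAD+ carrier, showed the narrowest interval of the tested members, at −0.00354 (95% interval −0.08 to 0.08). The coenzyme A carriers Slc25a16 and Slc25a42, the S-adenosylmethionine carrier Slc25a26 and the folate carrier Slc25a32 lay between 0.02 and 0.06.

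In the fit that held the cardiomyocyte score, 0 of 40 members had an adjusted p under 0.05 in edgeR, beside 0.0815% of all tested genes, and 5 had an unadjusted p under 0.05, beside 10.8%. These 5 were Slc25a34, Slc25a39, Slc25a15, Slc25a23 and Slc25a25, the last at 0.19 on the log2 scale. In 10 members the sign of the log2 fold change turned. Since the score went largely with the diet, whether lost calls and turned signs came from the poor separation of score and diet was not tested.

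Per unit of length the family spanned a wide range. By deposited RPKM averaged over the 10 mice, 15 tested members were at 10 or more, 22 between 1 and 10, and 3 below 1. In this order Slc25a17 (90.9 RPKM) stood above Slc25a4 (65.1), then came Slc25a30 (35.0), Slc25a11 (32.5), Slc25a5 (27.5) and Slc25a45 (22.3). Of the 45 pairs of neighbours in the order of all 46 members, 6 had ranges over the 10 mice that did not overlap. These were Slc25a17 above Slc25a4, Slc25a4 above Slc25a30, Slc25a11 above Slc25a5, Slc25a5 above Slc25a45, Slc25a25 above Slc25a28 and Slc25a46 above Slc25a32. Slc25a30 was above Slc25a11 in 7 of the 10 mice, and those 2 levels overlapped.

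The order depended on the gene length used. The authors' gene lengths were 0.373 to 3.31 times those of the merged exons in GENCODE M21 for the members, and 10 members moved by more than 5 places when reads were divided by merged exon lengths. Slc25a4 then came first at an RPKM of 88.5, followed by Slc25a11 with 58.4, Slc25a17 with 53.2, Slc25a5 with 50.1 and Slc25a45 with 46.8. Slc25a30 moved from the third to the 16th place, with 13.1. The identifiers of Slc25a17 and Slc25a30, whose lengths in the table were shorter than the merged exons, carry other versions in GENCODE M21, so that their gene models may differ from those the authors used. Comparisons of a gene between the diets do not depend on its length.

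**Figure D5:**
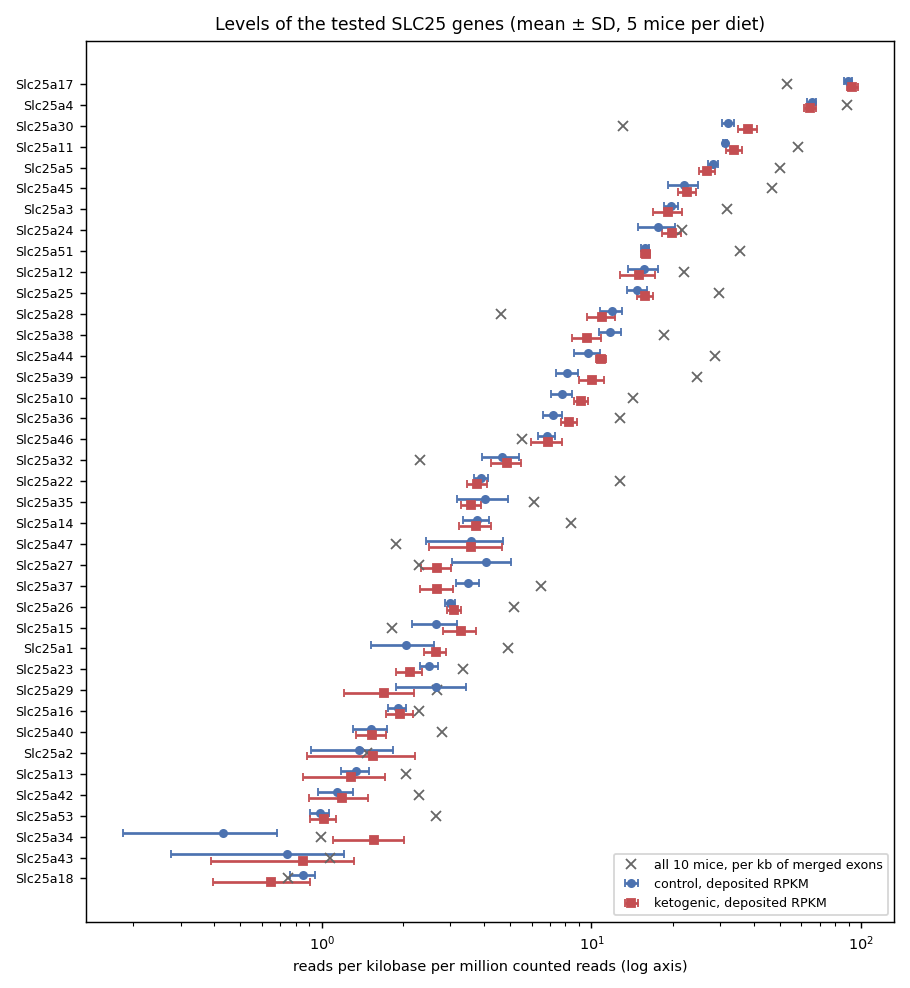
Level of 39 tested SLC25 genes as RPKM (log x axis), with circles for the control diet, squares for the ketogenic diet, bars for the SD of 5 mice, and crosses for all 10 mice with merged exon lengths. Slc25a17 leads by deposited RPKM at 90.9 and Slc25a4 by merged exons at 88.5.

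Among pairs of close relatives, Slc25a4 stood above Slc25a5 by deposited RPKM, with a ratio of 2.32 ± 0.0273 (SD, n = 5) on the control diet and 2.41 ± 0.0714 (SD, n = 5) on the ketogenic diet, and 1.73 and 1.80 by merged exons. The counts of both genes spread less between mice than counting error, as given above, so that these small SDs do not give the precision of the ratio. Slc25a12 was 11.7 ± 0.631 times as high as Slc25a13 in control mice (SD, n = 5) and 13.1 ± 5.92 times in ketogenic mice (SD, n = 5), the wide spread coming with 1 mouse at 23.6. Slc25a39 stood 5.46 ± 1.22 times above Slc25a40 (SD, n = 5) on the control diet and 6.66 ± 1.49 times (SD, n = 5) on the ketogenic diet. For the mitoferrins the order turned with the length, since on the control diet Slc25a28 was 3.44 ± 0.434 times as high as Slc25a37 (SD, n = 5) by deposited RPKM and 0.661 ± 0.0833 times (SD, n = 5) by merged exons. The ratio of Slc25a24 to Slc25a25 on the control diet was 1.20 ± 0.215 (SD, n = 5, range 0.925 to 1.48) by deposited RPKM, with mice on both sides of 1, and 0.716 ± 0.128 (SD, n = 5) by merged exons.

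Around the carriers, 34 other genes of mitochondrial transport were examined, 33 of them with enough reads for the test. Of these 24 were above 0 and 9 below, with a median log2 fold change of 0.05, and 1 passed the adjusted test in edgeR, beside 1.34% of all tested genes. This was Ucp3, an uncoupling protein of heart, skeletal muscle and brown fat that belongs to the same protein family under another symbol. Its normalized counts were 6.48, 23.8, 18.6, 9.47 and 5.03 in the control mice and 36.5, 62.7, 61.9, 83.6 and 53.8 in the ketogenic mice. Each ketogenic mouse was above each control mouse. The mean was 12.7 ± 8.17 (SD, n = 5) on the control diet and 59.7 ± 17.0 (SD, n = 5) on the ketogenic diet, with a diet difference of 2.21 ± 0.378 on the log2 scale (SE, adjusted p = 0.0178 from edgeR) and, when corrected for the cardiomyocyte score, 1.91 (unadjusted p = 0.00674, adjusted p = 0.257 from edgeR), which no longer passed the threshold. Per 1000 cardiomyocyte marker counts there were on average 1.45 counts of Ucp3 (range 0.555 to 3.02, n = 5) on the control diet and 5.16 (range 3.88 to 6.75, n = 5) on the ketogenic diet, without overlap. Per count of Ttn the diets did overlap, since control mouse 2 reached into the ketogenic range, and the other control mice stayed below it. Control mouse 2 had normalized counts of 23.8 for Ucp3 and 442 for Ttn, and ketogenic mouse 3 had 61.9 and 1563.

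The inner membrane carriers and channels outside the family had 0 of 16 past the adjusted threshold in edgeR, with 2 above 0 and 0 below it at an unadjusted p under 0.05, beside 8.57% and 9.26% of all tested genes. The outer membrane channels and the import machinery that inserts carrier proteins had 0 of 13, with 2 above 0 and 0 below it at an unadjusted p under 0.05 beside the same shares of all tested genes. Log2 fold changes were positive in 11 of these 13. In both lists the log2 fold changes lay between −0.10 and 0.29.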

How the data were processed

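CD31+ cardiac cells of 10 mice were sequenced by the authors as single reads. Per the submitters' processing notes, the tools were bcl2fastq 2.17.1.14, STAR 2.3 and HTSeq 0.6.0 with the mm10 genome; the annotation release and the handling of duplicate reads are not given in the sources used here. The authors deposited counts, the whole number of reads on each of 46983 genes per mouse without normalization, and RPKM, the same counts divided by gene length and by the counted reads. Their gene lengths exceeded the merged exons of GENCODE M21 in all 11316 genes with overlapping exon records among those of the same identifier version (median ratio 1.53). Diet and replicate number came from the labels, and 46488 identifiers were found in GENCODE M21 (GRCm38) without regard to version.

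Counts were normalized by TMM and filtered by filterByExpr, and 15949 genes were tested with edgeR 4.0.16 (quasi-likelihood F-test, Benjamini-Hochberg) in R 4.3.3. Normalized counts are counts scaled to the mean effective library size. For single genes an exact permutation test (two-sided, over all groupings of the mice) was run as well, with a smallest p of 0.00794. Alternatives were DESeq2 1.42.0, other size factors, other filters, limma 3.58.1 on log2(RPKM + 1) or log2(RPKM + 0.1), a cardiomyocyte score as covariate, a replicate block and each mouse left out; counts corrected for start positions and merged exon lengths were chosen after seeing the data. Named genes were members with an adjusted p under 0.05, the 10 with the smallest p and the 6 with the highest RPKM, and other transport genes by the same threshold. A tested member that enters the totals is not reported singly here. Members, lists and tests were chosen with earlier results of these data known. The tests were checked on simulated data. P-values of the fits set the diet difference against the spread between mice, and the permutation p ranks it among the groupings. Few reads limit the precision of genes with low counts.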

Additional observations from a re-analysis of the deposited data

Results flagged for a closer look

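In the groups of 5 mice of the members named in the text, 2 of 30 groups held a mouse far from the others, where chance gives about 1 in 20, or 1.5. Control mouse 4 had the highest normalized count of Slc25a23, at 256, and its gap to the next mouse took up 0.864 of the control range. Ketogenic mouse 1 had the highest normalized count of Slc25a39, at 1032, and its gap took up 0.861 of the ketogenic range. The critical ratio for 5 samples is 0.71. Both mice lay on the side away from the other diet.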

How the results depend on the processing

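Over all tested genes, the count with an adjusted p under 0.05 was 213, and it was 815 with DESeq2 (211 shared), 13 with the cardiomyocyte score as a covariate (9 shared) and 113 with the replicate number as a block (90 shared); leaving out each mouse gave 86 to 492, the highest without ketogenic mouse 2. Members past the threshold numbered 1 in the fit reported, 5 with DESeq2, 0 with the score as a covariate (5 at an unadjusted p under 0.05) and 0 with the replicate block (10 at an unadjusted p under 0.05), all by edgeR unless named; leaving out each mouse gave 0 to 3, the highest without ketogenic mouse 2, when Slc25a30 and Slc25a37 joined Slc25a34. Under DESeq2's size factors, upper quartile factors, library size alone, limma with either pseudocount, both other filters and the correction for start positions, the count of members stayed at 1, and it was Slc25a34 each time. The split of 20 above and 20 below 0 became 24 and 16 with DESeq2's size factors or library size alone. The log2 fold change of Slc25a17 turned to −0.0098 with the covariate, and that of Slc25a45 ran from −0.0479 without control mouse 4 to 0.0702 without ketogenic mouse 2; the cause was not tested. Of 315 values of named members under other settings, 298 kept their direction and side of the threshold. All named members apart from Slc25a34 lay outside the threshold in the fit reported, so that keeping their side says little. The call of Slc25a34 was lost in 9 settings, with the covariate, with the replicate block and in the leave-out fits named above. Same-numbered mice of the 2 diets did not deviate together (correlations of −0.134 to 0.094, and 0 control mice correlated best with their own number). These correlations cannot show that the mice shared nothing else, such as a litter or a day. The paper calls the control animals littermates, and the labels give only the number. With the replicate block the adjusted p of Slc25a34 was 0.0804 by edgeR. Few reads limit Slc25a34, Slc25a18, Slc25a2 and Slc25a43. The counts of Slc25a4 and Slc25a5 spread less between mice than counting error, and the part of repeated read starts in this was not tested.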
